A study of Mus musculus with 6 samples.

Results

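The 10 genes described here encode the hypoxia-inducible factors (HIF), the enzymes and the ligase that control them, and a pair of their targets. They were picked by symbol from the deposited table of 29616 mouse genes, namely the HIF alpha subunits Hif1a, Epas1 and Hif3a, the shared partner Arnt, the prolyl hydroxylases Egln1, Egln2 and Egln3, the ubiquitin ligase subunit Vhl, and the targets Bnip3 and Ndrg1. Hif3a was chosen by its measured values in the comparison reported below, and the group was proposed with those values known, so the members' values are given as a description with no test. RNA sequencing was done on 3 control and 3 dexamethasone libraries from bone cells of mice of the strain C57BL/6 per the labels, given as C57BL/6J in the study's methods. Per the study's methods, dexamethasone, a synthetic glucocorticoid, was given daily at 0.08 µg/g for 4 weeks from 8 weeks of age, and the controls of the study's mouse model received saline. No transgene, Cre or allele is named for these groups. The study's text describes the RNA as coming from Osteocalcin-positive cells of bones whose marrow had been removed, whereas the labels give only bone cells. Whether a library came from 1 mouse or from several is not given in the sources used here, so the spread between libraries may be technical in part.

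In normal oxygen the prolyl hydroxylases attach hydroxyl groups to HIF alpha proteins, and the Vhl ligase then marks the hydroxylated proteins for destruction by the proteasome. When oxygen is short the alpha subunits escape this, pair with Arnt and bind a short DNA core in their target genes, among them genes for glucose uptake, vessel growth, iron supply and mitochondrial turnover. In bone, Hif1a in osteoblasts is known for coupling vessel growth to bone formation. This control acts on the protein, so transcript levels do not give the level or the activity of the HIF proteins.

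The promoters of Hif3a and Hif1a, the alpha subunits described most fully below, and of Egln3 and Bnip3, known HIF targets, are shown here because the HIF core is the letters by which the family binds DNA. Each is the 300 bases from 250 before to 50 after an annotated start, 5′ to 3′ on the strand of the gene, from RefSeq in the build GRCm38.p6. Capitals mark ACGTG or GCGTG on the strand shown and their reverse complements CACGT and CACGC, searched on both strands. The letters CACGTG count as 2 overlapping matches, 1 on each strand. The 4 promoters are Hif3a at chr7:17062378-17062677 on the minus strand, Hif1a at chr12:73907617-73907916 on the plus strand, Egln3 at chr12:54203825-54204124 on the minus strand and Bnip3 at chr7:138909457-138909756 on the minus strand.
Hif3a: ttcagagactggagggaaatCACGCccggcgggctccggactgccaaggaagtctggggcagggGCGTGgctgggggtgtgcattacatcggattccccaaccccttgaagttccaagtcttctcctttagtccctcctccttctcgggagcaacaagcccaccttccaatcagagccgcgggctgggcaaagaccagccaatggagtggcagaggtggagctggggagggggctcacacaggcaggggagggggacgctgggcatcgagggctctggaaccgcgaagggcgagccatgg
Hif1a: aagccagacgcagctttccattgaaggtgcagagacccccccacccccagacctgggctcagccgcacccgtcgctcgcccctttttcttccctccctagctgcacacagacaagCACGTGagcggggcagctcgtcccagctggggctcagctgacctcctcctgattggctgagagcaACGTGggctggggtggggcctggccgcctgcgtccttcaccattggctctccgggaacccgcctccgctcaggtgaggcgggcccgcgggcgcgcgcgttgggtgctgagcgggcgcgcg
Egln3: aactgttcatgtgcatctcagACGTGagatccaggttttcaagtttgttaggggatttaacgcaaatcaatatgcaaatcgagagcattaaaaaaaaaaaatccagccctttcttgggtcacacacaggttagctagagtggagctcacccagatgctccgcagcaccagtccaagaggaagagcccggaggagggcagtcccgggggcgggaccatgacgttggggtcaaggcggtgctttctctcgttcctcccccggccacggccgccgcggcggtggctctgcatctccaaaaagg
Bnip3: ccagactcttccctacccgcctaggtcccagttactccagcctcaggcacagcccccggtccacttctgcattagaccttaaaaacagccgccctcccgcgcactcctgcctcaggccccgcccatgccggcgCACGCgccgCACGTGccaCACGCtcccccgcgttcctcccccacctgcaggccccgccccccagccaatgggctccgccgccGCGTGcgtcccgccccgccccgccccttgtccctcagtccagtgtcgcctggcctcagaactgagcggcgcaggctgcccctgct

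The Hif3a window holds 2 cores, which begin 230 and 186 bases before the start. Bnip3 holds 5, of which 4 lie between 117 and 99 bases before the start and include the overlapping pair. Hif1a holds 3 and Egln3 holds 1, at 229 bases before the start. The table has 9 promoters for 8 members, since Egln2 has 2, and it lists none for Epas1 and Ndrg1. The core was found in 8 of the 9, all but that of Vhl, and in 43.8% of the 32851 promoters of the same length. The glucocorticoid receptor element of AGAACA and TGTTCT with 3 bases of any kind between them is in none of the 9 promoters and in 0.00913% of all promoters. The letters AGAACA alone, on either strand, is also in none of the 9 and is in 19.0% of all. GC content was 63.7% for Hif3a, 69.3% for Hif1a, 54.7% for Egln3 and 71.7% for Bnip3, beside a median of 52.7% over all promoters. A match is a description of the letters in the window, not of binding.

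The libraries held 72596611 to 89910728 reads. A normalized count is the read count of a gene divided by the size factor of its library. All 10 members passed the filter of a mean of at least 10 normalized counts, as did 17442 genes in all, but Hif3a passed through the dexamethasone libraries only. A gene was called when its limma adjusted p was under 0.05 and its fold change was at least 1 in either direction on the log2 scale, a quantity called the log2 difference below and taken on log2(normalized count + 1). Of the 9 genes listed as glucocorticoid-induced, 8 were called higher with dexamethasone, and Klf9 was under the fold cut-off at 0.66. Over all genes tested 22.3% were called, 11.7% higher and 10.6% lower, and 2 of the 10 members were called, 1 in each direction, Hif3a higher and Ndrg1 lower. The groups did not overlap for 7 of the 10 members and for 74.7% of all genes tested. Since the comparison had a part in choosing the members, nothing is read from these shares. In bulk RNA, fewer cells of a type and less RNA per cell cannot be told apart.

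**Figure D1:**
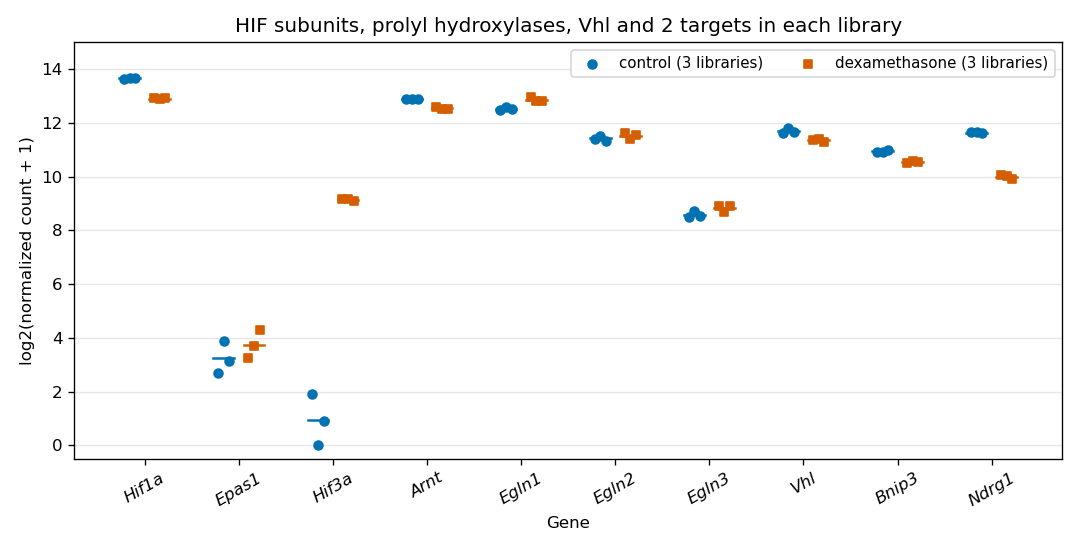
Level of each of the 10 genes in each library, as log2(normalized count + 1), with circles for the 3 control and squares for the 3 dexamethasone libraries and a bar at each group mean. Hif3a lies near 0 in the controls and, with dexamethasone, above Egln3, while Hif1a is the highest of the 10 in the control libraries. These counts are not divided by gene length. Per kilobase of exon Hif3a lies below Egln3 with dexamethasone, at 84.4 and 171.

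Among the HIF alpha subunits, Hif1a was abundant and lower with dexamethasone, Hif3a was near zero in the controls and present with dexamethasone, and Epas1 was near the limit of detection in both groups. Hif1a, the alpha subunit found in most cell types, stood at 12777, 13206 and 13185 normalized counts in the 3 controls, taken in the order of their replicate numbers, and at 7780.0, 7539.7 and 7708 with dexamethasone. Every dexamethasone library lay below every control library. The means were 13056 ± 242 (SD, n = 3) and 7676 ± 123 (SD, n = 3), a log2 difference of -0.77 (standard error 0.0343) and a 1.70-fold lower level with dexamethasone, under the fold cut-off. The log2 difference was -0.88 with every library set to the same total and -0.98 with quantile-normalized values, the second just under the cut-off. The annotation GENCODE M21 places other genes over 2.51% of the exon bases of Hif1a on the same strand and over 5.60% on the opposite strand, and 98.7% of its 75-base stretches occur in no other gene.

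Hif3a, which encodes an alpha subunit with several short forms, some of which hold back the other HIF proteins, gave 3, 0 and 1 reads in the controls. The dexamethasone libraries gave 600, 529 and 473 reads of it, or 572, 577 and 550.0 normalized counts, with a mean of 566 ± 14.3 (SD, n = 3). All control libraries were at or under the 3 reads that a count of 0 allows, and the groups did not overlap. Set against 3 reads in each control library, Hif3a was at least 193-fold higher with dexamethasone. The fitted log2 difference was 8.21 (standard error 0.330) and depends on the added 1, since it was 5.69 with 10 added. No other annotated gene overlaps its exons. The table counts whole genes, so which forms of Hif3a were present was not measured.

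Epas1, the alpha subunit also called HIF-2 alpha and known from endothelial cells, gave 6, 14 and 9 reads in the controls and 9, 11 and 16 with dexamethasone. The groups overlapped. The means were 9.04 ± 4.21 (SD, n = 3) and 13.1 ± 5.09 (SD, n = 3) normalized counts, and the log2 difference was 0.51 (standard error 0.434), past neither cut-off. This difference lay between 0.23 and 0.82 in 5 fits that each left out 1 library, and without dexamethasone replicate 3 Epas1 no longer reached the filter on low values.

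Arnt, which encodes the beta subunit that pairs with every HIF alpha protein, had 7557, 7566 and 7602 normalized counts in the controls and 6113, 5914 and 5944 with dexamethasone. Every dexamethasone library was below every control library. The log2 difference was -0.34 (standard error 0.0346), a smaller difference than that of Hif1a.

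The 3 prolyl hydroxylases had small differences, all under the fold cut-off. Egln1, which encodes PHD2, the main oxygen sensor of the family, had 5743, 6127 and 5851 normalized counts in the controls and 7978, 7236 and 7223 with dexamethasone. The dexamethasone libraries all lay above the controls, and replicate 1 was the highest. The log2 difference was 0.34 (standard error 0.0410), and it was 0.23 with every library set to the same total and 0.14 with quantile-normalized values.

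Egln2, which encodes PHD1, had 2715, 2943 and 2600.3 normalized counts in the controls and 3133, 2703 and 2984 with dexamethasone. The groups overlapped, and the log2 difference of 0.09 (standard error 0.0515) turned to -0.02 at the same total and to -0.06 with quantile-normalized values. Setting every library to the same total moved the median log2 difference of all tested genes from near 0 to -0.11, and Egln2 was the only member whose direction turned under any setting tried. Egln3, which encodes PHD3 and is itself a HIF target, had 364, 418 and 368 normalized counts in the controls and 475, 414 and 479 with dexamethasone. Dexamethasone replicate 2 lay within the control range, and the log2 difference was 0.25 (standard error 0.0835), or 0.14 at the same total.

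Vhl, the subunit of the ligase that recognises hydroxylated HIF alpha, had 3198, 3555 and 3251 normalized counts in the controls and 2661, 2738 and 2524 with dexamethasone. The groups did not overlap, and the log2 difference was -0.34 (standard error 0.0454), of about the size of that of Arnt.

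The 2 targets were both lower with dexamethasone. Bnip3, a mitochondrial outer membrane protein that serves as a receptor for mitophagy, had 1922, 1944 and 2057 normalized counts in the controls and 1472, 1541 and 1508 with dexamethasone. The groups did not overlap and the log2 difference was -0.39 (standard error 0.0464). A gene on the opposite strand overlaps 22.3% of the Bnip3 exon bases and 88.6% of its 75-base stretches occur in no other gene. Of the genes that share the rest, Gm6532 and Gm9419 had at most 5.81 normalized counts in any library.

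Ndrg1, which encodes a stress-responsive protein induced by hypoxia and differentiation, had 3206, 3227 and 3137 normalized counts in the controls and 1056, 1039.9 and 963 with dexamethasone. The means were 3190.1 ± 47.0 (SD, n = 3) and 1019.5 ± 49.8 (SD, n = 3), a 3.13-fold lower level with dexamethasone. The highest dexamethasone library was far below the lowest control library. The log2 difference of -1.65 (standard error 0.0469) ranged from -1.76 to -1.61 over the settings tried. Genes on the opposite strand overlap 8.43% of its exon bases, and whether the deposited counts used strand is not given in the sources used here.

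**Figure D2:**
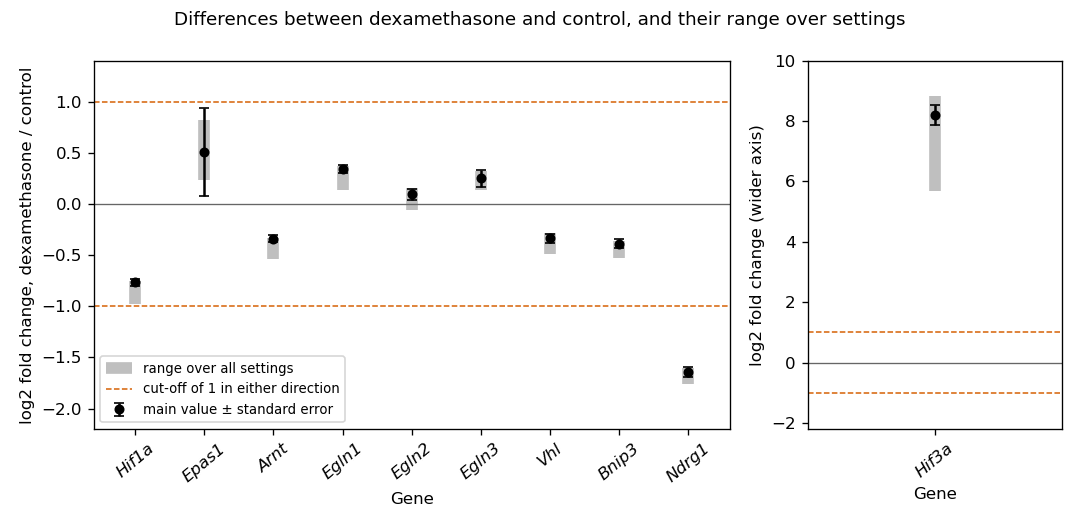
Log2 difference, dexamethasone over control, for each member, with the standard error as a bar and the range over all settings as a grey band, and Hif3a on a wider axis at the right. Dashed lines mark the fold cut-off of 1; Hif3a and Ndrg1 are past it under every setting, and the band of Egln2 spans 0.

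The members just inside and just outside the fold cut-off were Ndrg1, at -1.65, and Hif1a, at -0.77. Of the 10 members, 6 had an adjusted p under 0.05 and a smaller fold change than the cut-off, as did 50.2% of all genes tested, and Epas1 and Egln2 passed neither. An adjusted p under 0.05 alone was reached by 8 members and by 72.5% of all genes tested. Under this looser rule Egln3 was no longer past the threshold at the same total, and Egln2 was past it without control replicate 2 or without dexamethasone replicate 2. Log2 differences were positive for 5 and negative for 5, with a median of -0.12.

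Levels of different genes were compared per kilobase of exon. In the control libraries the order of the mean normalized counts per kilobase was Hif1a at 2214, Egln1 at 1644, Vhl at 1113, Egln2 at 983, Arnt at 946, Bnip3 at 872, Ndrg1 at 484, Egln3 at 144, Epas1 at 1.62 and Hif3a at 0.180. Neighbouring genes in this order had libraries that did not overlap, except Egln2 and Arnt. With dexamethasone the order was Egln1 at 2081, Hif1a at 1302, Egln2 at 1050, Vhl at 881, Arnt at 748, Bnip3 at 665, Egln3 at 171, Ndrg1 at 155, Hif3a at 84.4 and Epas1 at 2.34. Here the libraries of Egln3 and Ndrg1 overlapped. Egln1 thus stood above Hif1a with dexamethasone and below it in the controls, and Hif3a stood above Epas1 in place of below it. Both also hold with the length of the longest transcript, an alternative chosen after seeing the data, but other places do not. With that length Arnt came before Egln1 in the controls, at 1751 and 1644 normalized counts per kilobase, Egln2 came before Vhl, at 1306 and 1194, and with dexamethasone Arnt came before Vhl and Ndrg1 before Egln3.

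Within the HIF alpha subunits, Hif1a made up 99.9% of the summed level per kilobase in the controls and 93.8% ± 0.172 (SD, n = 3) with dexamethasone. Hif3a made up 0.00826% and 6.08% ± 0.201 (SD, n = 3), and Epas1 0.0727% and 0.168%. The sum itself was 2216 ± 41.4 (SD, n = 3) in the controls and 1389 ± 20.1 (SD, n = 3) with dexamethasone.

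Within the prolyl hydroxylases, Egln1 made up 59.3% ± 0.966 (SD, n = 3) in the controls and 63.0% ± 1.25 (SD, n = 3) with dexamethasone. Egln2 made up 35.5% and 31.8%, and Egln3 5.19% in both groups. The sum was 2771 ± 123 (SD, n = 3) and 3302 ± 196 (SD, n = 3) normalized counts per kilobase. These shares rest on the exon lengths used, and with the length of the longest transcript the share of Egln1 was 53.1% and 57.1%.

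Ratios within a library do not depend on how libraries are scaled, but their size, like that of the shares, rests on the exon lengths used. The summed HIF alpha level per summed prolyl hydroxylase level was 0.802, 0.770 and 0.830 in the controls and 0.400, 0.436 and 0.428 with dexamethasone, so the groups were well apart. Egln1 per Hif1a was 0.742 ± 0.0171 (SD, n = 3) and 1.60 ± 0.0754 (SD, n = 3), and Hif1a per Arnt was 2.34 ± 0.0392 (SD, n = 3) and 1.74 ± 0.0181 (SD, n = 3). Egln1 per Vhl was 1.48 and 2.36. Egln1 per Egln3 differed less, at 11.4 ± 0.498 (SD, n = 3) and 12.2 ± 0.913 (SD, n = 3), with libraries that overlapped.

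**Figure D3:**
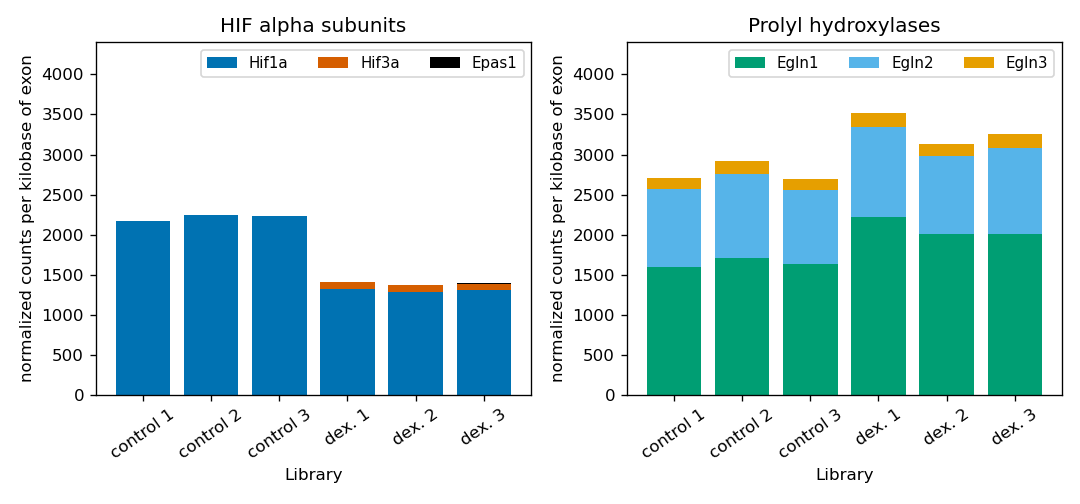
Normalized counts per kilobase of exon in each library, stacked by gene, for the HIF alpha subunits at the left and the prolyl hydroxylases at the right. The HIF alpha stacks average 2216 in the controls and 1389 with dexamethasone, with a thin Hif3a segment in the dexamethasone libraries, and the hydroxylase stacks average 2771 and 3302.

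The genes whose 6 values were nearest to those of Hif3a, by Euclidean distance between log2(normalized count + 1) values, were Dusp2 at 1.58, Serpina3m at 1.69, Orm1 at 1.76, Gm19589 at 2.02 and Speer3 at 2.39. All 5 had at most 3 reads in each control library, and their dexamethasone means were 881, 640.2, 320.3, 310.5 and 222 normalized counts, beside 566 for Hif3a. Since these genes were picked by nearness to Hif3a, low control and high dexamethasone values follow from the pick. Of the genes tested, 80 had at most 3 reads in every control library. Among these 14 reached a mean of 100 normalized counts with dexamethasone, and Hif3a had rank 4 of the 14. All 80 passed the filter on low values through the dexamethasone libraries only, so being higher there follows from the selection. Nothing is read from the rank.

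The other genes of the pathway were taken from lists of textbook roles. Of 96 genes listed, 93 were in the table and 87 were tested, of which 9 rose, 7 fell and 54 had an adjusted p under 0.05 with a fold change under the cut-off. The share called was 18.4%, beside 22.3% of all genes tested, and the median log2 difference was 0.10. At the same total the median of all tested genes moved from near 0 to -0.11, a move at least as large as this 0.10. No direction is therefore read from the median over all lists. An adjusted p under 0.05 with a fold change under the cut-off was found for 50.2% of all genes tested. Genes past the p threshold went both ways in every list except that of the Ndrg family, and each list's median kept its sign at the same total and with quantile-normalized values.

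Among the partners of oxygen-dependent hydroxylation and of the Vhl ligase none of 9 tested genes was called, beside 22.3% of all genes tested. An adjusted p under 0.05 without the fold change was reached by 7, beside 50.2% of all genes tested, and the median was -0.08. Os9, which helps the prolyl hydroxylases reach HIF alpha, had the highest level per kilobase of this list, with a log2 difference of -0.77 (limma adjusted p = 1.78e-14). P4htm, a transmembrane prolyl hydroxylase and the gene with the largest difference of the list, had 252, 244 and 265 normalized counts in the controls and 129.7, 131 and 123 with dexamethasone, a log2 difference of -0.98 just under the cut-off. Over all lists the genes that fell numbered 8 in place of 7 at the same total and with quantile-normalized values. The number was also 8 with edgeR and with no filter on low values. Which gene was added is not reported here for any of these settings. Hif1an, the asparaginyl hydroxylase that blocks HIF coactivator binding, had a log2 difference of 0.11 (limma adjusted p = 0.0074). Siah2, a ligase that degrades prolyl hydroxylases, had one of 0.84.

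Among the coactivators, competitors and chaperones none of 6 tested genes was called, beside 22.3% of all genes tested. All 6 had an adjusted p under 0.05, as did 72.5% of all genes tested. Hsp90ab1, the chaperone with the highest level per kilobase of the list, had a log2 difference of 0.33 (limma adjusted p = 2.3e-06). Cited2, which competes with HIF for its coactivators, had 11058 ± 186 (SD, n = 3) normalized counts in the controls and 6027 ± 231 (SD, n = 3) with dexamethasone, a log2 difference of -0.88 under the cut-off.

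Of the 8 tested genes of the wider bHLH-PAS family, to which HIF alpha and Arnt belong, 1 rose and 3 fell. The share called was 50%, beside 22.3% of all genes tested. Arnt2, a close relative of Arnt, had 325, 339 and 339 normalized counts in the controls and 1078, 989.7 and 955 with dexamethasone. It rose with a log2 difference of 1.59 (standard error 0.0686, limma adjusted p = 1.66e-16), in the opposite direction to Arnt. Ahr, the dioxin receptor, fell by 1.06 on the log2 scale, its repressor Ahrr by 1.49 and Npas3 by 1.08. Without dexamethasone replicate 2 the value of Npas3 was -0.98, under the cut-off.

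Of the 20 tested HIF targets of glucose uptake and glycolysis 4 rose and 1 fell, or 25%, beside 22.3% of all genes tested. A further 10 were higher and 2 lower with an adjusted p under 0.05 and a fold change under the cut-off, beside 50.2% of all genes tested in either direction. The median log2 difference was 0.24, and 0.12 at the same total. Pfkfb4, which makes an activator of glycolysis, had 741, 799 and 778 normalized counts in the controls and 2033, 1916 and 1994 with dexamethasone and rose with a log2 difference of 1.357 (limma adjusted p = 1.16e-17). The glucose transporter gene Slc2a1 rose from 3319 ± 142 normalized counts (SD, n = 3) to 8189 ± 185 (SD, n = 3), and Pgk1 rose with a log2 difference of 1.16, although only 47.2% of the 75-base stretches of Pgk1 occur in no other gene. Aldoc, an aldolase, rose from a low level of 10.02 ± 4.45 normalized counts (SD, n = 3) to 31.1 ± 6.31 (SD, n = 3).

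The second glucose transporter gene of the list, Slc2a3, fell from 25.9 ± 8.09 normalized counts (SD, n = 3) to 10.8 ± 2.81 (SD, n = 3), a log2 difference of -1.17 (limma adjusted p = 0.00466) that was -0.77 with 10 added in place of 1. Gapdh, the gene with the highest level per kilobase, had a log2 difference of 0.23, and 77.4% of its 75-base stretches occur in no other gene. Pdk1, which turns pyruvate away from mitochondria, had one of -0.31, under the cut-off. Slc2a1 and Slc2a3, which serve the same transport, thus passed the cut-offs in opposite directions.

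Of the 10 tested targets of vessels, iron and red cells 2 rose and 1 fell, with a median of 0.74. The share called was 30%, beside 22.3% of all genes tested. Tfrc, the transferrin receptor, had 3972, 4109.7 and 4217 normalized counts in the controls and 19409.9, 19855 and 19327 with dexamethasone, and rose with a log2 difference of 2.25 (limma adjusted p = 1.68e-25). Edn1, which encodes the vessel constrictor endothelin, had 151, 117 and 101 normalized counts in the controls and 10.5, 10.9 and 15.1 with dexamethasone, and fell by 3.23 on the log2 scale (limma adjusted p = 7.64e-12). Vegfa, the vessel growth factor, had a log2 difference of 0.78 and Hmox1, which breaks down heme, one of 0.70, both under the cut-off.

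Of the 8 tested targets of collagen modification and pH 1 fell and none rose, or 12.5%, beside 22.3% of all genes tested. Plod2, a lysyl hydroxylase of collagen, had 13298, 13777 and 13172 normalized counts in the controls and 5551, 5559 and 5412 with dexamethasone, and fell by 1.28 on the log2 scale (limma adjusted p = 1.03e-20). Lox, which crosslinks collagen and had the highest level per kilobase, had a log2 difference of 0.74. Plod2 and Lox thus had differences of opposite sign.

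Of the 14 tested targets of feedback, stress and mitochondria 2 rose and none fell, or 14.3%, beside 22.3% of all genes tested. Bhlhe40, a transcriptional repressor induced by hypoxia and by the clock, had 5802, 6327 and 5505 normalized counts in the controls and 16012, 14754 and 14867 with dexamethasone, and rose with a log2 difference of 1.37 (limma adjusted p = 3.46e-19). Cox4i2, a cytochrome c oxidase subunit, rose from 10.04 ± 5.74 normalized counts (SD, n = 3) to 21.9 ± 5.22 (SD, n = 3) (limma adjusted p = 0.0105). Its log2 difference of 1.15 was 0.70 with 10 added, 0.89 without control replicate 3 and 0.98 without dexamethasone replicate 1, each under the cut-off. Ddit4, an inhibitor of mTOR signalling, had a log2 difference of -0.81, Fam162a, the gene of this list with the highest level per kilobase, one of 0.52 and Kdm3a, a histone demethylase, one of -0.02.

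Around Bnip3, 1 of 11 tested genes for mitophagy receptors and LC3-family proteins fell and none rose. This was 9.09%, beside 22.3% of all genes tested. A further 8 were lower and 1 higher with an adjusted p under 0.05 and a fold change under the cut-off. Of all genes tested 50.2% were of this kind in either direction. The median was -0.29. Gabarap, an LC3-family protein and the highest of the list per kilobase, had a log2 difference of -0.82. Bnip3l, the closest relative of Bnip3, had 4308, 4599 and 4695 normalized counts in the controls and 5679.5, 5332 and 5774 with dexamethasone, a log2 difference of 0.30 against -0.39 for Bnip3, and 83.1% of its 75-base stretches occur in no other gene.

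Of the other Ndrg family genes, Ndrg3 and Ndrg4 had log2 differences of -0.48 and -0.20, with the same sign as Ndrg1 and under the cut-off. Ndrg2 was at 0 reads in every library except dexamethasone replicate 2, which had 5, and was not tested.

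**Figure D4:**
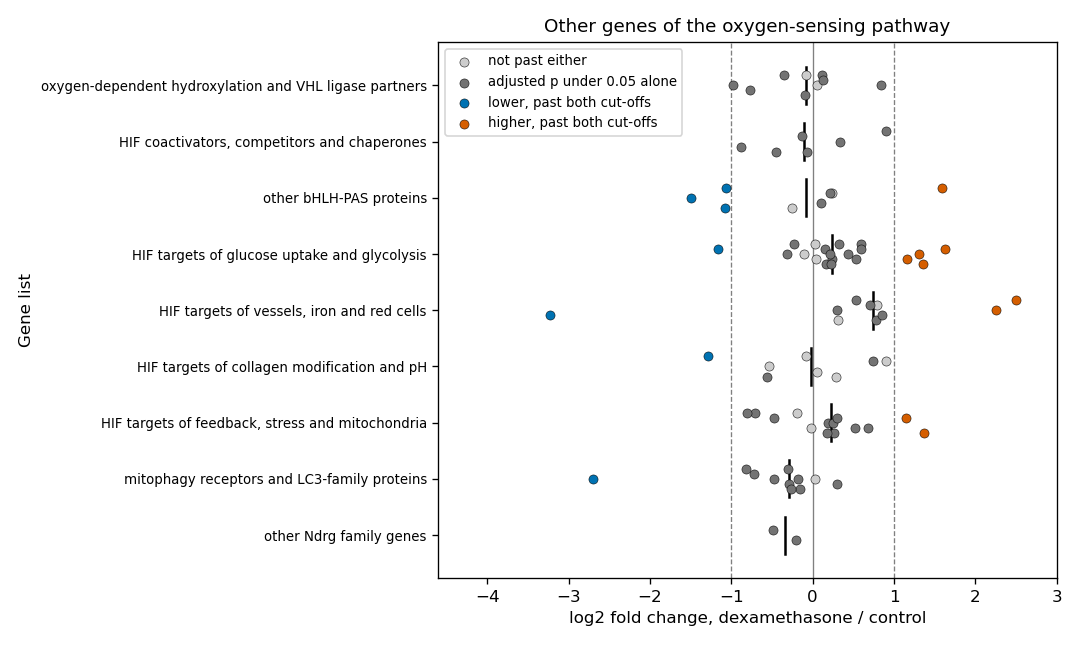
Log2 difference, dexamethasone over control, for each tested gene of the 9 pathway lists, 1 point a gene, coloured by which cut-offs it passed, with a black bar at each list median. Most points lie between -1 and 1, and the vessel, iron and red cell list has the highest median, 0.74.

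Markers of several other cell types also differed between the groups, but not those of all. The summed erythroid markers ranged from 106 to 123 normalized counts in the controls and from 65.8 to 117 with dexamethasone. The summed skeletal muscle markers ranged from 62.4 to 78.3 and from 55.6 to 72.5. Both sums overlapped between the groups, although Acta1 of the muscle list fell by 1.56 on the log2 scale. The summed level of the 6 pan-hematopoietic markers ranged from 94.0 to 129 normalized counts in the controls and from 776 to 823 with dexamethasone, with Vav1 at 3 reads or fewer in every library. Of this list Cd53 and Itgb2 rose, with log2 differences of 4.11 and 3.20, while Coro1a and Laptm5 fell by 1.77 and 1.49 on the log2 scale. Ptprc, the defining marker CD45, had means of 2.48 and 4.71 normalized counts. The 6 adipocyte markers summed to 28.4 to 36.0 and 1437 to 1545, the second range nearly all from Fabp4, with Cidec and Lep at 3 reads or fewer in every library. The endothelial markers summed to 387 to 425 and 486 to 518 with Cdh5 and Tie1 at 3 reads or fewer in all libraries. Most of this sum was Kdr, with means of 348 and 414. Esam rose from 14.3 to 32.99, and Pecam1 had means of 15.7 and 26.3, under the fold cut-off, while Tek had means of 12.6 and 8.11. The macrophage and osteoclast markers ranged from 13087 to 13694 and from 8713 to 9289, nearly all from Ctsk, while Cd68 rose from 173 to 596. Csf1r was lower, from 46.0 to 28.3, under the fold cut-off. Acp5 and Ocstamp, too low to be tested, had means of 0 and 2.25 normalized counts in the controls and 18.3 and 14.0 with dexamethasone. The chondrocyte markers ranged from 35116 to 36632 and from 9655 to 10795, with Col11a1 lower, from 34474 to 4308, and Col2a1 higher, from 1517 to 5687. Comp was lower, from 118 to 49.7. Col9a1 and Matn1 had 3 reads or fewer in every library and Acan 6 or fewer, so these sums are mostly Col11a1 and Col2a1. Of the 8 osteoblast and osteocyte markers 6 fell, Dmp1 rose, and Bglap, which encodes Osteocalcin, the protein of the sort, had 107 ± 12.9 (SD, n = 3) and 12.2 ± 2.80 (SD, n = 3) normalized counts. The part of these markers in the members' values was not tested.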

How the data were processed

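Bone-cell RNA from 3 control and 3 dexamethasone-treated mouse samples was sequenced from stranded mRNA libraries. The submitters' processing notes name bcl2fastq, STAR 2.7.10a, DESeq2 1.36.0 and the build GRCm39. Which annotation release and which strand option the count used is not given in the sources used here. The deposited signal values are normalized counts, the read counts the authors divided by a DESeq2 size factor for each library, and 100% of them were whole multiples of 1 read within a tolerance of 0.01. Depth was 72596611 to 89910728 reads, and a count of 0 allows up to 3 reads, which covers counting error only. Symbols, exon lengths and overlaps came from GENCODE M21.

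Genes whose mean reached 10 normalized counts were compared with limma 3.58.1 (R 4.3.3) on log2(normalized count + 1), with a mean-variance trend and Benjamini-Hochberg adjustment over all 17442 genes. Genes past both cut-offs, an adjusted p under 0.05 and a change of 1 or more on the log2 scale, were called. The fold change understates that of low genes. Replicate libraries differed by more than sampling noise. The fit was tested on simulated data. The members and lists were chosen with earlier results of these data known. The text names all members, in each list up to 2 genes that rose and 2 that fell most and the one with the highest level per kilobase, and the 5 genes nearest to Hif3a. Some genes that this rule picks are counted in their lists but not reported here. P4htm, Hif1an, Siah2, Cited2, Slc2a1, Pgk1, Pdk1, Vegfa, Ddit4, Kdm3a, Bnip3l, Ndrg4 and the marker genes are named outside that rule, after their values were seen. Other pseudocounts, filters and scalings, edgeR 4.0.16, DESeq2 1.42.0 on the recovered reads, a replicate block and leaving out each library were tried.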

Additional observations from a re-analysis of the deposited data

How the results depend on the processing

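No member's call changed in any fit that held it while the fold requirement was kept. Epas1 was not held with a mean of at least 100 or without dexamethasone replicate 3. With adjusted p under 0.05 alone 8 members, 39 pathway genes higher, 31 lower and 12645 genes in all were called, and with a mean of at least 100 these were 4 pathway genes lower and 2170 genes in all, beside 3894. Called genes numbered 3944 with edgeR, 3870 with DESeq2 and 3888 to 3922 when a library was left out. Of the called genes 52.3% were higher, against 45.1% when libraries had the same total and 62.2% with a mean of at least 100. Egln2 reversed to -0.0200 at the same total and -0.0647 after quantile normalization. The median of the bHLH-PAS list was 0.10 with a mean of at least 100 and between -0.212 and 0.119 when a library was left out, positive without dexamethasone replicate 2, and that of the collagen and pH list was between -0.121 and 0.0124, positive without control replicate 2. With the longest transcript as length, Hif1a and Hif3a made up 94.7% and 5.16% of the HIF alpha level with dexamethasone, and Egln1, Egln2 and Egln3 53.1%, 42.2% and 4.65% of the hydroxylase level in the controls and 57.1%, 38.2% and 4.70% with dexamethasone. With a replicate block 3897 genes were called and no call of a named gene changed; same-numbered libraries did not deviate together (correlations of -0.0999, -0.105 and -0.0199), so the numbers were not taken to pair the samples. The cause of these moves was not tested. Slc2a3, Aldoc, Cox4i2 and Edn1 also have no value with a mean of at least 100. Depth limits Epas1, with 16 reads or fewer in each library, and leaves the control level of Hif3a at no more than 3 reads.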
